A study of Mus musculus with 16 samples.

Results

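Chromatin regulator host genes were the genes whose symbol begins with Kmt, Kdm, Setd, Chd, Nsd, Ehmt, Hdac, Kat, Ncoa or Arid followed by a digit, or begins with Smarc, or is Ash1l or Bptf. The rule reads the symbol alone, and the set was chosen with earlier results of these data known. The rule took 81 of the 8610 host genes listed and 1217 of the 68854 circular RNAs (circRNAs). Of these, 78 genes and 874 circRNAs had a count in at least 1 library, of 6886 host genes and 40381 circRNAs in the whole table. Hdac3, Kmt2b and Smarca1 were listed at 0 in all 16 libraries. No count of 1 was listed for any circRNA, so a circle with 1 read in a library could still stand at 0.

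The hearts came from male C57BL/6 mice, 32 in the design with 8 in each group, and 16 libraries were analysed here. Sham, called the blank control by the labels, was the only group without coronary ligation (n = 3). The other groups all carried myocardial ischaemia-reperfusion injury (MIRI), in which the left anterior descending artery of the heart was ligated, the ligature came off after 30 min, and tissue was collected 1 week later. MIRI had no further agent (n = 3). MIRI+Compound C also received Compound C, an inhibitor of the energy-sensing kinase AMPK (n = 5). MIRI+AICAR also received AICAR, an activator of AMPK (n = 5). Doses and routes were not given in the sources used here, and Compound C and AICAR were each given only to injured mice. The labels do not say that the libraries of a group came from separate mice, so the p-values measure the spread between these libraries, which may be technical.

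A circRNA forms when the end of an exon is spliced back to the start of the same or an earlier exon, and the reads that cross this back-splice are what was counted. A count therefore measures the circle and neither the linear messenger RNA nor the protein of the host gene. The host genes encode enzymes that add methyl or acetyl groups to histones (Kmt, Setd, Nsd, Ehmt, Ash1l, Kat), enzymes that remove them (Kdm, Hdac), subunits of complexes that move nucleosomes (Smarc, Chd, Arid1a, Arid1b, Arid2, Bptf), and coactivators of nuclear receptors (Ncoa). In heart muscle, the class IIa deacetylases Hdac4, Hdac5 and Hdac9 are known to hold back the transcription factor Mef2 and hypertrophic growth, and the Brg1 and Brm ATPases encoded by Smarca4 and Smarca2 drive the BAF remodelling complex. A few symbols carry a chromatin name but another known role: Setd3 methylates actin, Ncoa7 has a known role in oxidative stress resistance, and Smarcal1 rewinds DNA at replication forks.

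Library totals ranged from 119948 to 240889 back-splice counts, so 1 count was worth between 4.15 and 8.34 CPM, the back-splice counts scaled to a common library total of 1e6. The summed level of cardiomyocyte marker genes, of which 12 of 14 could be tested and none was at 0, ranged from 25647 to 44848 CPM. Endothelial genes (8 of 11 tested, none at 0) summed to between 2157 and 4596 CPM, leukocyte genes (8 of 10, Csf1r at 0) to between 1787 and 4162 CPM, fibroblast and matrix genes (7 of 10, Postn and Tcf21 at 0) to between 773 and 1820 CPM, and smooth muscle and pericyte genes (4 of 7, Acta2 and Pdgfrb at 0) to between 1111 and 1986 CPM. Some of these sums differed between groups without overlap, and those are given with each comparison. The platelet list (4 of 8, with Itga2b, Gp1ba and Pf4 at 0) reached 14867 CPM in MIRI replicate 1 and 4238 CPM in MIRI+AICAR replicate 5, against 742 to 1175 CPM in the other 14. The libraries also differed in the length of their circles. Exonic circles of up to 300 nt held 21.2% of exonic counts in Sham replicate 1, 18.9% in MIRI replicate 1 and 17.5% in MIRI+Compound C replicate 1, and 13.1% to 15.98% in the other 13.

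The sequences that identify the leading circles are the back-splice junctions, since the rest of a circle is shared with the linear transcript. Each line below joins the last 15 bases of the circle in lower case to its first 15 bases in capitals, 5′ to 3′ on the RNA strand. The sequences were read from GENCODE M21 transcripts on GRCm38, whose exon edges the deposited coordinates follow.
Ehmt1 novel_circ_034925, exons 16 to 18 of 27, chr2:24813527-24825067 (-): aacatccgggacaacGCGGGTGCCAATATT
Kat6b novel_circ_020665, exon 2 of 17, chr14:21516626-21517498 (+): catgagaaagaccagGTCTTGGTTTCCTAA
Nsd2 novel_circ_050598, exons 3 to 4 of 23, chr5:33843112-33846267 (+): ataccaaacttaaagTGTTCTAAGAACCAA
Kmt2a novel_circ_063506, exons 19 to 20 of 36, chr9:44828784-44829268 (-): gatgacagtgctaatTGGGATGTTACCAAA
Ncoa2 novel_circ_000107, exons 2 to 4 of 23, chr1:13221307-13286025 (-): agatcaaagagcaagATTTTCCTCGCATCT
Ash1l novel_circ_043085, exons 4 to 5 of 28, chr3:89001773-89007877 (+): agaaaacaataaaagGTTCCCAGTCAGCTT
Chd2 novel_circ_056581, exons 3 to 5 of 39, chr7:73514090-73519708 (-): gcagctgaaaaaacaTCGTTCAGCTTCTGA
Kdm2a novel_circ_031882, exons 19 to 20 of 21, chr19:4320152-4321056 (-): agctcaatatggcagGATTAAAAGACCTCC
Kdm4c novel_circ_046343, exons 6 to 8 of 22, chr4:74306965-74315649 (+): aaggttgctaagttgGTATGCTATACCTCC
Kmt2c novel_circ_047913, exons 24 to 25 of 59, chr5:25347361-25349940 (-): ctagcagagatgatgAAGGAGAACTTATGG
Kmt2c novel_circ_047914, exons 21 to 25 of 59, chr5:25347361-25353408 (-): ctagcagagatgatgGTGGATGCATGCAGT
The Kmt2a circle starts 3 bases inside exon 19, and the others start and end on exon edges. The last pair shares its lower-case side, the end of exon 25, and differs in the exon it is joined to. The second circle of that pair was chosen for display after its values were seen.

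Chromatin regulator circles made up a small share of the heart's circRNA counts in every group. The share ranged from 1.95% in MIRI replicate 1 (95% Wilson interval 1.89% to 2.02%, counting error only) to 2.15% in MIRI+Compound C replicate 5 (2.08% to 2.23%). The mean share was 2.03% ± 0.0275 (SD, n = 3) for Sham, 2.01% ± 0.0515 (n = 3) for MIRI, 2.09% ± 0.0490 (n = 5) for MIRI+Compound C and 2.08% ± 0.0177 (n = 5) for MIRI+AICAR. The 5 MIRI+AICAR libraries, from 2.06% to 2.10%, lay above the 3 MIRI libraries, from 1.95% to 2.05%, and every other pair of groups overlapped. The gap was within counting error. The nearest libraries, MIRI replicate 2 (Wilson interval 1.98% to 2.12%) and MIRI+AICAR replicate 3 (2.00% to 2.12%), had overlapping intervals. The share was not tested because a sum over the chosen genes carries no independent test. In whole hearts, fewer cells that make a circle and less circle per cell cannot be told apart.

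**Figure D1:**
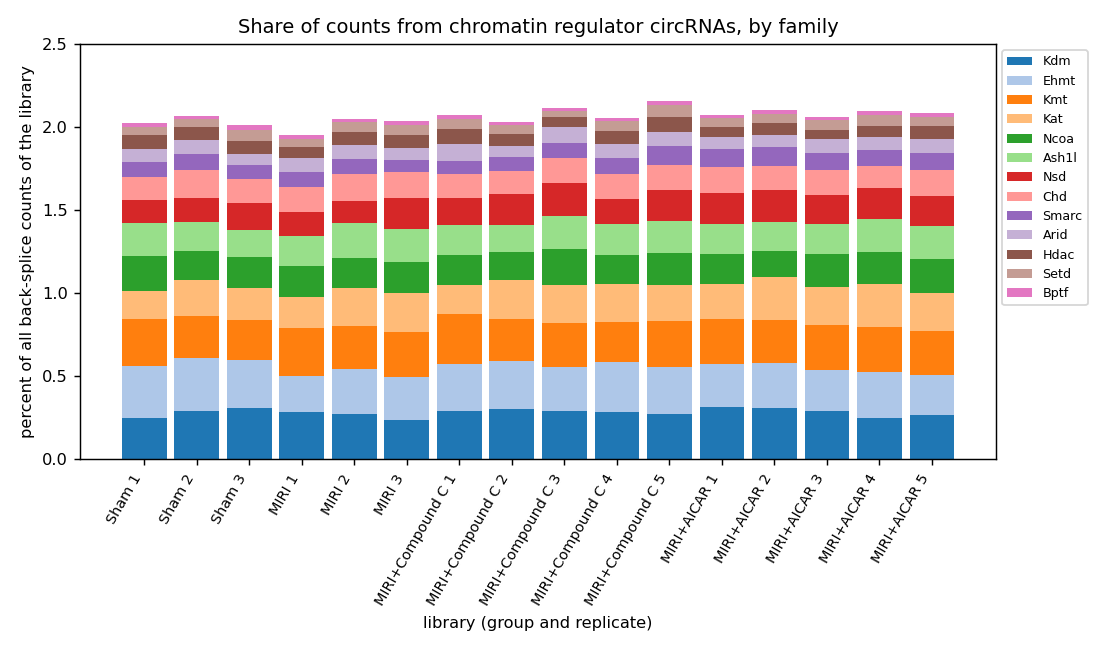
Share of each library's back-splice counts (y axis, percent) that came from chromatin regulator circRNAs, stacked by gene family, for the 16 libraries (x axis). Every bar ends between 1.95% and 2.15%, and the Kdm, Ehmt and Kmt families are the thickest bands.

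Within this share the lysine demethylases (Kdm) held 0.283% of all counts from 14 genes, Ehmt1 alone held 0.274%, and the Kmt methyltransferases held 0.266% from 7 genes with a count. The Kat acetyltransferases followed at 0.219%, the Ncoa coactivators and Ash1l at 0.187% each, the Nsd methyltransferases at 0.169% and the Chd remodellers at 0.150%. The remaining families were lower, from the Smarc remodellers at 0.0934% through Arid at 0.0818%, Hdac at 0.0746% and Setd at 0.0562% to Bptf, the largest subunit of the NURF remodelling complex, at 0.0211%. Counts were concentrated: 10 genes held 61.3% of the counts of the chromatin regulators and 10 circles held 35.3%. At the low end, 16 genes had fewer than 15 counts over all libraries, among them Kmt2d with 4, Hdac5 with 10 and Chd4 with 9.

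**Figure D2:**
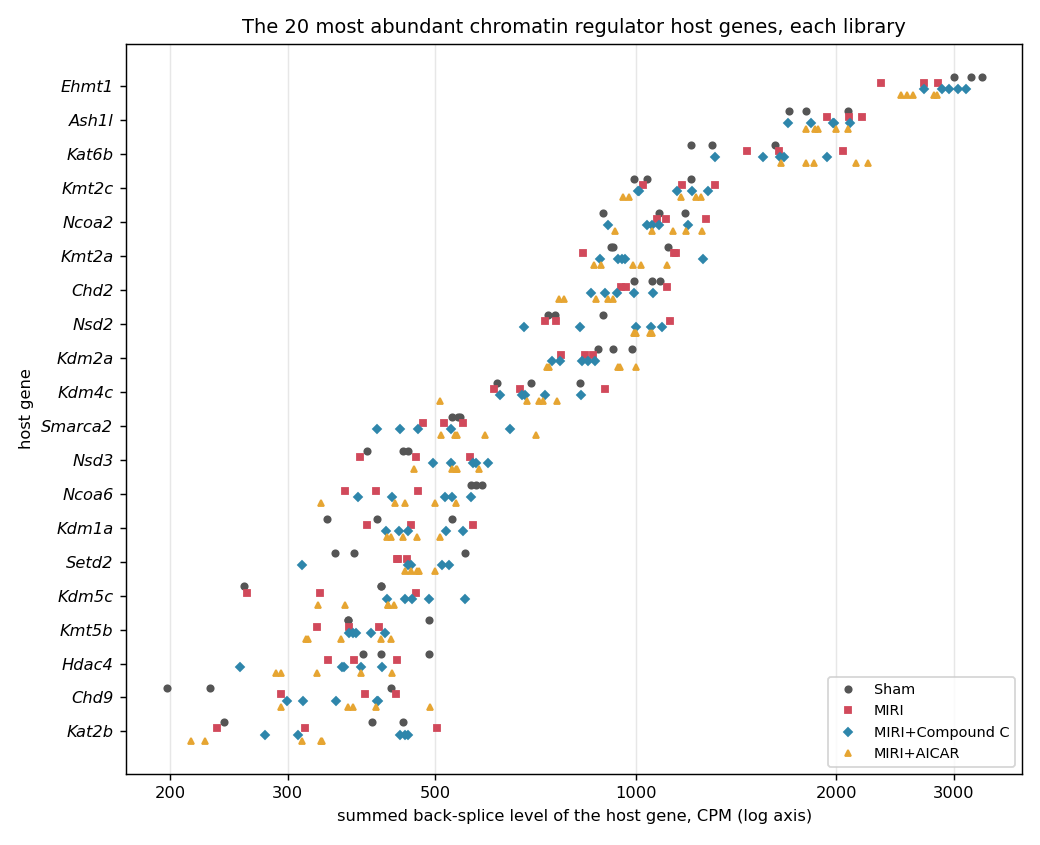
Summed back-splice level of the 20 most abundant chromatin regulator host genes (y axis) in each of the 16 libraries, in CPM on a log axis, coloured by group. Ehmt1 lies between 2335 and 3305 CPM, and the 4 groups are interleaved for most genes.

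Among the histone methyltransferases, Ehmt1, whose product GLP pairs with G9a to place repressive methylation on histone H3, was the most abundant chromatin regulator host gene. Its circles summed to 2836 ± 265 CPM (mean ± SD, n = 16 libraries), rank 40 of the 3699 host genes that passed the filter on low counts. The level of Ehmt1 was 3187, 3305 and 3003 CPM for Sham, 2335, 2844 and 2704 for MIRI, 2882, 3047, 2707, 3129.7 and 2948 for MIRI+Compound C and 2608, 2801, 2549, 2830.4 and 2500.1 for MIRI+AICAR. The 3 Sham libraries were above all 3 MIRI libraries. Ash1l, which methylates histone H3 at sites tied to active transcription, came next at 1937 ± 149.5 CPM and rank 70, with 2079, 1802 and 1696 CPM for Sham, 1935, 2186 and 2091 for MIRI, 1831, 1690.4, 2098, 1978 and 1983 for MIRI+Compound C and 1802, 1859.6, 1878, 2081 and 1996 for MIRI+AICAR. The Ash1l groups overlapped. Kmt2c, the enhancer methyltransferase MLL3, stood at 1125 ± 121 CPM (rank 174), and Kmt2a, the methyltransferase MLL1, at 998 ± 124 CPM (rank 203). Nsd2, which dimethylates histone H3 within gene bodies, stood at 922 ± 151 CPM (rank 228). Setd2, which places the trimethyl form of that mark, was the highest of the Setd genes at 452 ± 61.3 CPM.

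Kat6b, a MYST family histone acetyltransferase, was the third most abundant at 1692 ± 298 CPM (rank 94). Its level was 1211, 1619 and 1301 CPM for Sham, 1468, 1641 and 2049 for MIRI, 1313, 1938, 1644, 1669 and 1549.6 for MIRI+Compound C and 1650.2, 2232, 1801, 2141 and 1851 for MIRI+AICAR. Sham had the lowest mean and MIRI+AICAR the highest, with overlapping groups in each pair tested. All MIRI+AICAR libraries lay above all Sham libraries, with 1650.2 and 1619 CPM the nearest values, and that pair was not tested. Ncoa2, a p160 coactivator that recruits acetyltransferases to nuclear receptors, had 1092 ± 115 CPM (rank 179). Among the demethylases, Kdm2a, which acts at CpG islands, had 855 ± 87.2 CPM (rank 252) and Kdm4c, which removes repressive methylation, had 703 ± 94.95 CPM (rank 312). Chd2 led the remodellers at 948 ± 102 CPM (rank 219), ahead of the BAF ATPase gene Smarca2 at 534 ± 72.9 CPM. The most abundant deacetylase gene was Hdac4 at 373 ± 60.8 CPM, with Hdac9 at 301 ± 64.5 CPM. Arid1b, a DNA-binding BAF subunit, led the Arid genes at 200.3 ± 40.95 CPM, and Bptf had 219 ± 46.7 CPM. These levels are counts of junction reads and were not scaled by length, since each circle has 1 junction.

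Compared with host genes at large, chromatin regulators made more different circles per gene. The median was 7 circRNAs per gene against 3 over all host genes with a count, and 8 genes (10.3%) made a single circRNA against 27.98%. The median count per gene was also higher, at 223 against 53, and a gene with more counts has more chance to show rare circles. Ehmt1 had 52 circRNAs, Ash1l 49, Chd2 42, and Kmt2c and Hdac9 38 each, while the highest number for any host gene was 155. The leading circle held a median of 54.4% of a gene's counts over the 62 chromatin regulators with at least 15 counts, against 65.7% over all such host genes. Nsd2 and Hdac9 stood at opposite ends among the genes named: 1 circle held 95.8% of the Nsd2 counts, and the leading circle of Hdac9 held 14.9%.

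The order of the leading circles differed from that of their genes. Circle levels are scaled to the counts of the circRNAs that passed the filter and gene levels to those of the host genes that passed, so a circle's CPM can lie above its gene's and the values are compared only among circles. The Ehmt1 circle was the highest at 1469.6 ± 268 CPM (mean ± SD, n = 16), rank 79 of the 7917 circRNAs that passed the filter. Next came the Kat6b exon 2 circle at 995 ± 202 CPM, the Nsd2 circle at 953 ± 152 CPM and the Kmt2a circle at 939.99 ± 107 CPM. Ash1l, second among the genes, had several circles of lower level. Ncoa2 novel_circ_000107 had 857 ± 123 CPM, Ash1l novel_circ_043085 688 ± 96.1 CPM and Chd2 novel_circ_056581 613 ± 103 CPM. A second Kat6b circle, novel_circ_020679, joins exons 8 to 12, spans chr14:21626719-21637640 and is 636 nt long, and it had 611 ± 108 CPM. The Kdm2a circle had 483 ± 70.9 CPM and the Kdm4c circle 317 ± 53.8 CPM.

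The Nsd2 circle was at 758, 787 and 898 CPM for Sham, 817, 753 and 1049 for MIRI, 809, 1089, 1127, 735 and 1029.8 for MIRI+Compound C and 1127, 1019.5, 1082, 1123 and 1037 for MIRI+AICAR. Its groups overlapped in each pair tested, and all 5 MIRI+AICAR libraries lay above the 3 Sham libraries, a pair that was not tested. The Kmt2a circle was at 1031, 817 and 878 CPM for Sham, 1036, 772 and 979 for MIRI, 1198, 915, 909, 901 and 920.3 for MIRI+Compound C and 1065, 944, 977, 858 and 839 for MIRI+AICAR. All its groups overlapped, and the highest library was MIRI+Compound C replicate 1. The Ncoa2 circle was at 934, 656 and 919 CPM for Sham, 948, 824 and 841 for MIRI, 742, 622, 1012, 852 and 855 for MIRI+Compound C and 859.6, 717, 1037, 902 and 995 for MIRI+AICAR. All its groups overlapped as well.

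In some of the genes named, circles shared a splice site. How often this held over all chromatin regulators or all host genes is not given here. All 5 Nsd2 circRNAs began at the same 5′ end. Of the Hdac4 circRNAs, 7 began at 1 site and held 93.9% of its counts. Of the Kmt2c circRNAs, 7 ended at 1 site, the end of exon 25, and held 79.5% of its counts. Of the Ncoa2 circRNAs, 6 ended at 1 site and held 83.8%. Kat6b was different, since its leading circle is exon 2 alone, which holds the start codon, and no other Kat6b circle with a count used either of its ends.

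Of the 874 circRNAs with a count, 810 (92.7%) were exonic, 53 (6.06%) exon-intron and 11 (1.26%) intronic, against 87.4%, 6.75% and 1.11% over the whole table. Both ends of 769 of the exonic circles lay on exon edges of 1 GENCODE M21 transcript. These circles joined a median of 4 exons, as over the whole table, out of transcripts with a median of 24 exons against 18. A circle began at exon 2 in 115 cases (14.95%) against 22.6%. Of 665 circles made of coding sequence alone, 285 (42.9%) had a length that is a whole number of codons, against 39.7%. Among the more abundant circles that passed the filter the same share was 67 of 130 (51.5%), against 38.8%. Those 67 include the leading circles of Ehmt1 (330 nt), Chd2 (381 nt), Kmt2c (249 nt) and Kdm2a (375 nt). These shares are descriptions, since circles of a gene share exons and are not independent.

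The Kmt2c circle is short enough to show whole and is shown because a longer circle of the gene shares its 3′ end. It starts at exon 24 and ends with exon 25, and the capitals mark the bases on either side of the back-splice.
Kmt2c novel_circ_047913, chr5:25347361-25349940 (-), 249 nt: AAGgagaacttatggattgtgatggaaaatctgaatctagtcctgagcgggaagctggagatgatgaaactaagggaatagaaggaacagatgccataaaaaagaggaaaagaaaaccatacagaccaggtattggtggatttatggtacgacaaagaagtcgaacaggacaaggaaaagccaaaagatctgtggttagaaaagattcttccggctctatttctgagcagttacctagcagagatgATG
This circle was at 819, 452 and 466 CPM for Sham, 751, 575 and 468 for MIRI, 599, 404, 684, 364 and 628 for MIRI+Compound C and 467, 409, 576, 511 and 509 for MIRI+AICAR. The longer circle that shares its 3′ end, novel_circ_047914 of 638 nt, was at 229, 394 and 459 CPM for Sham, 365, 383 and 519.9 for MIRI, 299.6, 398, 388, 525 and 533 for MIRI+Compound C and 361, 409, 446, 588 and 408 for MIRI+AICAR. The shorter circle was highest and the longer one lowest in Sham replicate 1.

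Counted against each other within a library, the shorter Kmt2c circle had 93 counts to 26 of the longer in Sham replicate 1, a ratio of 3.58. The ratio was 2.06 in MIRI replicate 1 and 2.00 in MIRI+Compound C replicate 1. In the other 13 libraries it lay between 0.694 and 1.77. The libraries with the 3 highest ratios were those with the 3 highest shares of short circles over the whole table, given above, and each belongs to a different group. Other circles differed between libraries by length as well. Summed over the 83 exonic chromatin regulator circles that passed the filter and are longer than 600 nt, the level was lowest in Sham replicate 1 at 7454 CPM and MIRI+Compound C replicate 1 at 8307 CPM, and lay between 8885 and 11206 CPM in the other 14. Summed over the 27 circles of up to 300 nt, the level was highest in MIRI replicate 1 at 3917 CPM, Sham replicate 1 at 3868 CPM and MIRI+Compound C replicate 1 at 3648 CPM, and lay between 2773 and 3360 CPM in the other 13. With each library's share of short circles as a covariate, a fit added after the data were seen, edgeR called 0 of the 56 genes and 0 of the 187 circRNAs in each comparison. The same fit called 8 of all 3699 host genes in MIRI against Sham, 0 in MIRI+AICAR against MIRI, 10 in MIRI+Compound C against MIRI, 97 in MIRI+AICAR against MIRI+Compound C and 106 among the 4 groups. Of all 7917 circRNAs it called 6, 2, 4, 68 and 57 in that order.

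**Figure D3:**
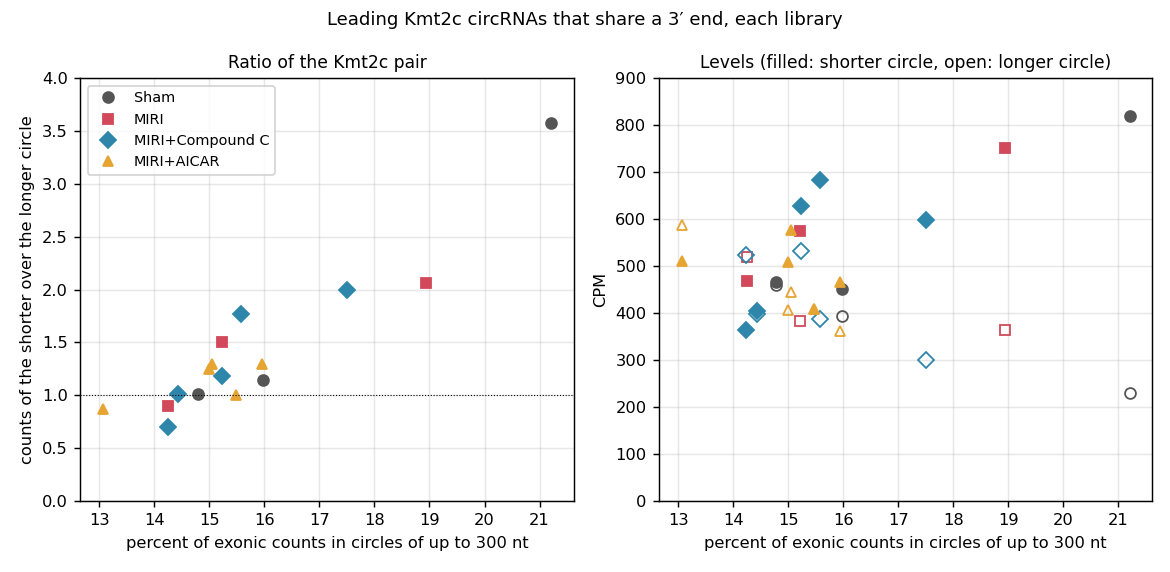
For each library, the share of exonic counts in circles of up to 300 nt (x axis, percent) against the count ratio of the shorter to the longer Kmt2c circle (left) and against the CPM of each circle (right, filled for the shorter and open for the longer). Sham replicate 1, at a ratio of 3.58, lies at the far right, and MIRI replicate 1 and MIRI+Compound C replicate 1 follow at 2.06 and 2.00.

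Variation over the 16 libraries, all groups together, was set beside that of host genes of like abundance. Among host genes with a mean of at least 1000 CPM, the median coefficient of variation was 10.5% over 5 chromatin regulators and 14.1% over all 201 host genes. Between 300 and 1000 CPM it was 13.6% over 17 chromatin regulators and 17.6% over all. Between 100 and 300 CPM the values were 26.2% and 26.5%, and under 100 CPM 41.8% and 55.1%. The 56 chromatin regulators and 187 of their circRNAs that passed the filter on low counts entered the tests and held 99.4% and 89.0% of the counts of the chromatin regulators. The 22 genes with a count that did not pass held 0.554%.

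No chromatin regulator gene differed between groups past the threshold, nor did any of their circles by edgeR. In the test for any difference among the 4 groups, edgeR's quasi-likelihood test with Benjamini-Hochberg adjustment over all features called 0 of the 56 genes at an adjusted p under 0.05, against 2.70% of all host genes tested, and DESeq2 also called 0. At an unadjusted p under 0.05 there were 4 genes, 7.14% of the 56, against 12.5% of all host genes. For single circRNAs edgeR called 0 of 187 against 0.531% of all circRNAs, and 6 (3.21%) had an unadjusted p under 0.05 against 8.79%. DESeq2 called 1 of the 187, and its share over all circRNAs is not given here, so that call is not set against a background. The shares at an unadjusted p were below those of the whole table. DESeq2 gave no adjusted p to part of the features in 3 of the pairwise comparisons, up to 148 of the 187 circRNAs, and its counts here and below are over the rest. The smallest adjusted p among the genes belonged to Kat6b (0.225), and among the circRNAs to Ehmt1 novel_circ_034925 (0.169). This Ehmt1 circle was the one that DESeq2 called (adjusted p = 0.0181), and edgeR called it when Sham replicate 3 was left out (adjusted p = 0.0487). Its adjusted p ranged from 0.0181 to 0.593 over the alternatives.

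**Figure D4:**
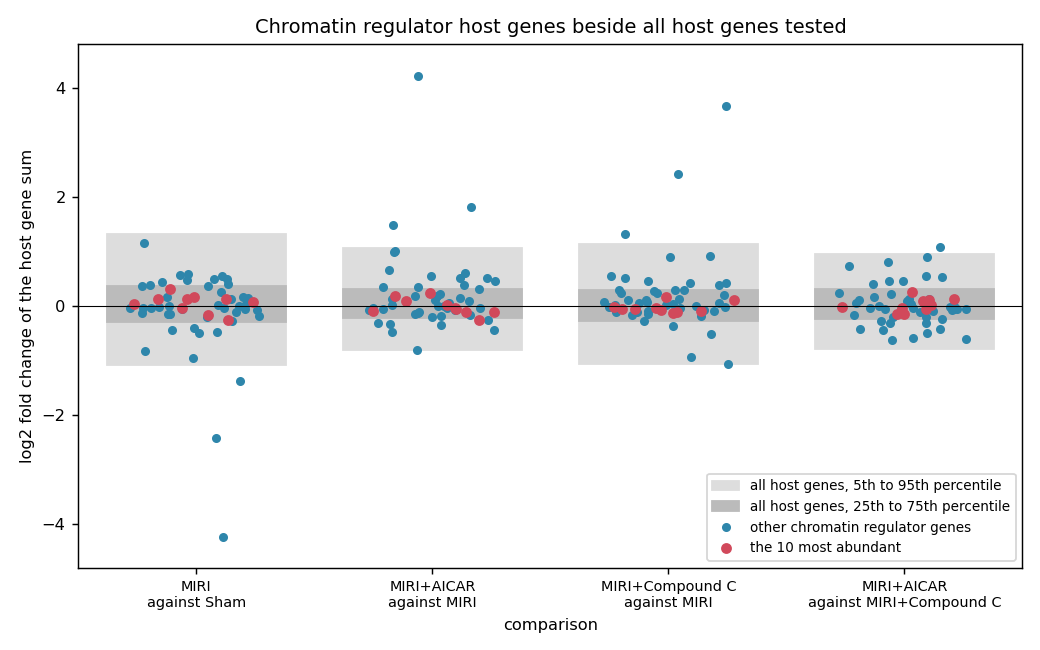
Log2 fold change of the summed level (y axis) of the 56 chromatin regulator host genes tested, in the 4 comparisons (x axis), with the 10 most abundant in red. Grey boxes span the 5th to 95th and the 25th to 75th percentile of all 3699 host genes tested, and the 10 most abundant lie between -0.27 and 0.31. The points beyond 3 are Smarcal1, which had 26 counts in all and 0 in MIRI.

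The first comparison asked what injury does to the circles, MIRI against Sham. edgeR called 0 of the 56 genes, against 0.162% of all host genes, and DESeq2 called 0. At an unadjusted p under 0.05 there were 4 genes (7.14%), all with lower values in MIRI, against 9.03% of all host genes. The median log2 fold change was -0.01 over the chromatin regulators and 0.02 over all host genes. Ncoa6, a coactivator found in complexes with MLL3 and MLL4, was at 575, 565 and 587 CPM in Sham and 365, 407 and 470.2 CPM in MIRI (log2 fold change -0.48 ± 0.20 (SE), edgeR adjusted p = 0.414). All MIRI values lay under all Sham values, but the difference did not pass the test. Ehmt1, given above, averaged 3165 ± 153 CPM in Sham and 2628 ± 263 CPM in MIRI (log2 fold change -0.27 ± 0.12 (SE), edgeR adjusted p = 0.475). Kdm3b, a demethylase of a repressive mark, averaged 154 ± 44.7 and 75.95 ± 48.7 CPM (log2 fold change -0.95 ± 0.40 (SE), edgeR adjusted p = 0.453), with overlapping groups. On the other side, Kmt2e, a reader of active histone methylation, was at 198, 197 and 134 CPM in Sham and 223, 293 and 218 CPM in MIRI, without overlap (log2 fold change 0.50 ± 0.26 (SE), edgeR adjusted p = 0.609). Kat6b (log2 fold change 0.31 ± 0.16 (SE), edgeR adjusted p = 0.592) and Arid1b (log2 fold change 0.44 ± 0.28 (SE), edgeR adjusted p = 0.701) also had higher means in MIRI, with overlapping groups. The summed fibroblast and matrix markers lay between 778 and 884 CPM in Sham and between 952 and 1820 CPM in MIRI, and the platelet list between 773 and 843 CPM and between 1006 and 14867 CPM. The other 4 marker lists overlapped between these groups, and the part of the markers in the differences was not tested.

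At the level of single circles in MIRI against Sham, edgeR and DESeq2 each called 0 of 187, against 0.0253% of all circRNAs by edgeR, and 7 (3.74%) had an unadjusted p under 0.05 against 6.82%. The smallest p belonged to the leading Ehmt1 circle, novel_circ_034925, which was at 2176, 2012 and 1425 CPM for Sham, 1291, 1449 and 1179 for MIRI, 1551, 1512, 1387, 1488 and 1519 for MIRI+Compound C and 1333, 1378, 1288, 1273 and 1253 for MIRI+AICAR. Sham replicates 1 and 2 stood above all other libraries, and Sham replicate 3 lay within the range of the MIRI libraries (log2 fold change -0.51 ± 0.15 (SE), edgeR adjusted p = 0.376). This circle held 66.6%, 56.8% and 44.8% of the Ehmt1 counts in the 3 Sham libraries and 51.3%, 47.8% and 42.2% in MIRI. Sham replicate 1 was the library with the largest share of short circles. In the fit with that share as a covariate, this circle of 330 nt was not called either. Over the alternatives, that fit among them, its log2 fold change lay between -0.67 and -0.40. The part of the share in this result was not tested further. A rarer Ehmt1 circle, novel_circ_034949, averaged 63.9 ± 30.8 CPM in Sham and 24.2 ± 8.81 CPM in MIRI (log2 fold change -1.34 ± 0.54 (SE), edgeR adjusted p = 0.557). Kmt2e novel_circ_050274 was at 52.9, 36.5 and 27.02 CPM in Sham and 72.9, 89.4 and 69.3 CPM in MIRI, without overlap (log2 fold change 1.02 ± 0.43 (SE), edgeR adjusted p = 0.586). Ash1l novel_circ_043112 averaged 198 ± 38.8 and 306 ± 39.2 CPM (log2 fold change 0.63 ± 0.30 (SE), edgeR adjusted p = 0.716), and Ash1l novel_circ_043087 averaged 23.6 ± 22.1 and 68.9 ± 23.00 CPM (log2 fold change 1.44 ± 0.63 (SE), edgeR adjusted p = 0.639), both without overlap. Ncoa6 novel_circ_037524 averaged 173 ± 83.6 CPM in Sham and 102 ± 25.8 CPM in MIRI (log2 fold change -0.77 ± 0.37 (SE), edgeR adjusted p = 0.729).

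**Figure D5:**
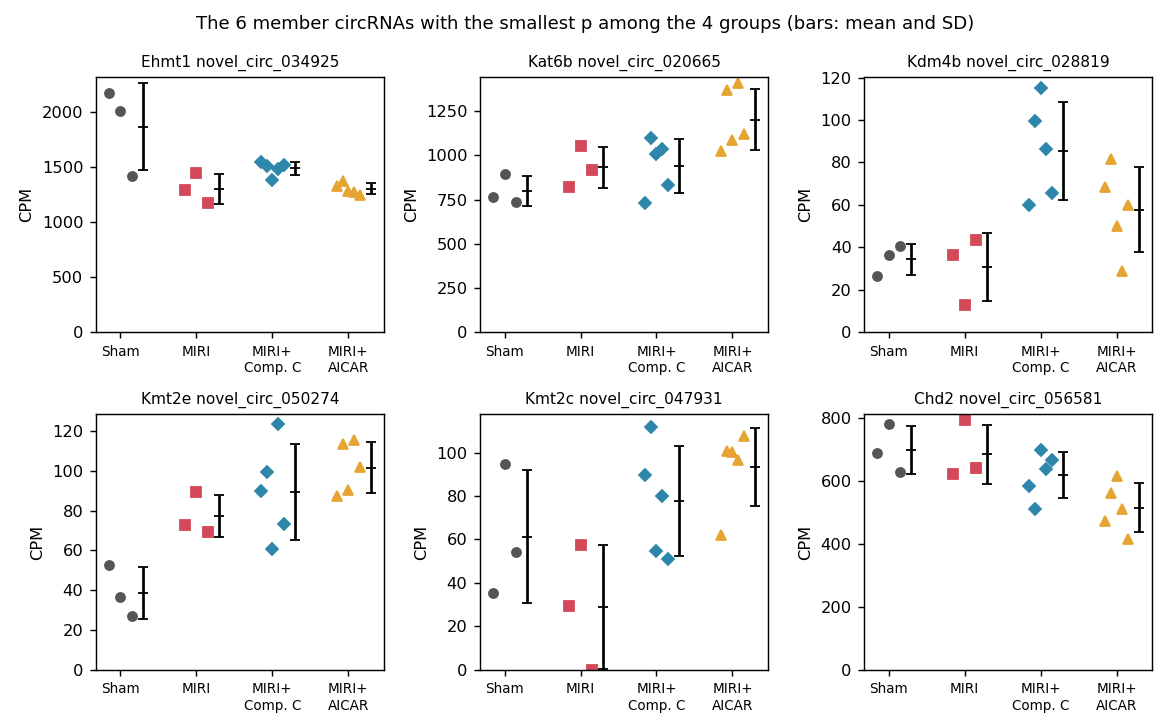
CPM (y axis) of the 6 chromatin regulator circRNAs with the smallest p in the test among the 4 groups, 1 point for each library by group (x axis), with bars for the mean and SD. Adjusted p lies between 0.169 for Ehmt1 novel_circ_034925 and 0.532 for Chd2 novel_circ_056581, so none passes the threshold.

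AMPK activation after injury was compared as MIRI+AICAR against MIRI, which has the same 3 MIRI libraries as MIRI against Sham. Of the genes, edgeR called 0 of 56 against 0.0270% of all host genes, DESeq2 called 0, and 2 (3.57%) had an unadjusted p under 0.05 against 6.76%. The median log2 fold change was 0.02 over both the chromatin regulators and all host genes. Smarcc1, a core BAF subunit, was at 142, 179.6 and 101 CPM in MIRI and 203, 169, 239, 189.6 and 225 CPM in MIRI+AICAR (log2 fold change 0.52 ± 0.24 (SE), edgeR adjusted p = 0.734). The groups overlapped. Smarca4, the BAF ATPase Brg1, was sparse at 16.1 ± 2.30 CPM in MIRI, from 7 counts in all, and 45.9 ± 13.2 CPM in MIRI+AICAR (log2 fold change 1.47 ± 0.71 (SE), edgeR adjusted p = 0.734). Chd6, a remodeller, averaged 65.6 ± 13.2 and 106 ± 14.5 CPM (log2 fold change 0.66 ± 0.33 (SE), edgeR adjusted p = 0.739). Chd2 was at 968, 1114 and 949 CPM in MIRI and 766, 872, 923, 779.8 and 907 CPM in MIRI+AICAR, without overlap (log2 fold change -0.25 ± 0.13 (SE), edgeR adjusted p = 0.762). Smarcb1, another BAF core subunit, averaged 85.5 ± 43.7 and 48.4 ± 14.7 CPM (log2 fold change -0.81 ± 0.41 (SE), edgeR adjusted p = 0.762). Arid4a, a subunit of the Sin3 corepressor complex, averaged 142 ± 51.00 and 103 ± 38.7 CPM (log2 fold change -0.48 ± 0.31 (SE), edgeR adjusted p = 0.861). All 6 marker lists overlapped between MIRI and MIRI+AICAR.

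Among the circles in MIRI+AICAR against MIRI, edgeR and DESeq2 each called 0 of 187, against 0.0253% of all circRNAs by edgeR, and 8 (4.28%) had an unadjusted p under 0.05 against 4.90%. Kmt2c novel_circ_047931 was at 29.2, 57.5 and 0 CPM in MIRI and 62.3, 101, 100.2, 96.4 and 108 CPM in MIRI+AICAR, without overlap (log2 fold change 1.56 ± 0.49 (SE), edgeR adjusted p = 0.801). The MIRI value rests on 13 counts, 0 of them in 1 library. Ehmt1 novel_circ_034949 averaged 24.2 ± 8.81 CPM in MIRI, from 10 counts in all, and 59.8 ± 13.5 CPM in MIRI+AICAR (log2 fold change 1.26 ± 0.48 (SE), edgeR adjusted p = 0.886). Ash1l novel_circ_043081 averaged 98.3 ± 16.5 and 162 ± 42.6 CPM (log2 fold change 0.73 ± 0.30 (SE), edgeR adjusted p = 0.908). The leading Chd2 circle, novel_circ_056581, was at 620.05, 792 and 641 CPM in MIRI and 473, 560.1, 616, 511 and 414 CPM in MIRI+AICAR, without overlap (log2 fold change -0.41 ± 0.17 (SE), edgeR adjusted p = 0.908). Ash1l novel_circ_043112 averaged 306 ± 39.2 CPM in MIRI and 210.3 ± 64.9 CPM in MIRI+AICAR (log2 fold change -0.54 ± 0.26 (SE), edgeR adjusted p = 0.977). Kdm4c novel_circ_046339 averaged 99.9 ± 30.00 and 60.7 ± 13.7 CPM (log2 fold change -0.72 ± 0.38 (SE), edgeR adjusted p = 0.977).

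AMPK inhibition after injury was compared as MIRI+Compound C against MIRI, which shares its MIRI libraries with both comparisons above. edgeR called 0 of 56 genes against 0.595% of all host genes, DESeq2 called 0, and 5 (8.93%) had an unadjusted p under 0.05 against 9.00%. The median log2 fold change was 0.02 over the chromatin regulators and 0.00 over all host genes. Chd6 was at 74.4, 71.9 and 50.4 CPM in MIRI and 168, 80.5, 111, 140.5 and 131 CPM in MIRI+Compound C, without overlap (log2 fold change 0.91 ± 0.33 (SE), edgeR adjusted p = 0.270). Its Sham values were 60.1, 102 and 115 CPM. Kdm4b, a demethylase of repressive marks, was at 108, 65.9 and 58.8 CPM in MIRI and 124, 184, 127, 163 and 124 CPM in MIRI+Compound C, without overlap (log2 fold change 0.89 ± 0.34 (SE), edgeR adjusted p = 0.327). Hdac7, a class IIa deacetylase known in vessels, had 3 counts in all in MIRI and 34 in MIRI+Compound C. Its level averaged 8.40 ± 14.5 and 42.0 ± 21.9 CPM, with overlapping groups (log2 fold change 2.42 ± 1.04 (SE), edgeR adjusted p = 0.422). Chd1, a remodeller that reads active promoters, was at 87.97, 83.8 and 109 CPM in MIRI and 72.95, 46.00, 44.3, 44.95 and 13.8 CPM in MIRI+Compound C, without overlap (log2 fold change -1.06 ± 0.42 (SE), edgeR adjusted p = 0.347). Ncoa7 averaged 40.7 ± 18.3 and 21.3 ± 9.90 CPM (log2 fold change -0.94 ± 0.65 (SE), edgeR adjusted p = 0.772), and Ash1l 2071 ± 126 and 1916 ± 158 CPM (log2 fold change -0.11 ± 0.11 (SE), edgeR adjusted p = 0.876). Endothelial markers summed to between 2281 and 3024 CPM in MIRI and between 3030 and 4596 CPM in MIRI+Compound C, and the platelet list to between 1006 and 14867 CPM and between 742 and 972 CPM. The nearest endothelial values, 3024 and 3030 CPM, lay so close that a few reads could close the gap. The other 4 lists overlapped, and the part of the markers in these differences was not tested.

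For the circles in MIRI+Compound C against MIRI, edgeR and DESeq2 each called 0 of 187, against 0.0884% of all circRNAs by edgeR, and 9 (4.81%) had an unadjusted p under 0.05 against 6.47%. Kdm4b novel_circ_028819 was at 36.5, 12.8 and 43.3 CPM in MIRI and 59.9, 99.6, 115, 86.4 and 65.7 CPM in MIRI+Compound C, without overlap (log2 fold change 1.51 ± 0.46 (SE), edgeR adjusted p = 0.323). Its level in MIRI+AICAR was 68.5, 81.8, 50.1, 28.9 and 59.9 CPM. Kmt2c novel_circ_047931 averaged 77.6 ± 25.4 CPM in MIRI+Compound C (log2 fold change 1.30 ± 0.50 (SE), edgeR adjusted p = 0.536). Ehmt1 novel_circ_034963 averaged 336 ± 108 and 501 ± 96.4 CPM (log2 fold change 0.57 ± 0.23 (SE), edgeR adjusted p = 0.574). Chd1 novel_circ_028339, which holds 86.1% of the Chd1 counts, averaged 85.6 ± 24.8 and 42.01 ± 17.5 CPM (log2 fold change -0.98 ± 0.43 (SE), edgeR adjusted p = 0.674). Kdm1a novel_circ_045363, of the demethylase gene LSD1, averaged 77.5 ± 33.1 and 44.7 ± 22.8 CPM (log2 fold change -0.78 ± 0.41 (SE), edgeR adjusted p = 0.837). Kmt2a novel_circ_063502 averaged 118 ± 37.1 and 75.7 ± 20.4 CPM (log2 fold change -0.61 ± 0.32 (SE), edgeR adjusted p = 0.840).

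The activator and the inhibitor were set against each other as MIRI+AICAR against MIRI+Compound C, with 5 libraries in each group. edgeR called 0 of 56 genes against 1.95% of all host genes, DESeq2 called 0, and 7 (12.5%) had an unadjusted p under 0.05 against 11.9%. The median log2 fold change was -0.03 over the chromatin regulators and 0.02 over all host genes. Arid4b, the partner of Arid4a in the Sin3 complex, was at 197, 115, 149, 157 and 158 CPM in MIRI+Compound C and 73.2, 81.4, 113, 73.2 and 161 CPM in MIRI+AICAR (log2 fold change -0.62 ± 0.25 (SE), edgeR adjusted p = 0.254). Hdac9 was at 387, 305, 260.2, 348 and 448 CPM in MIRI+Compound C and 186, 227, 252, 289 and 317 CPM in MIRI+AICAR (log2 fold change -0.45 ± 0.18 (SE), edgeR adjusted p = 0.254). Both genes overlapped between the groups. Kdm4b averaged 144 ± 27.5 and 98.3 ± 40.1 CPM (log2 fold change -0.58 ± 0.27 (SE), edgeR adjusted p = 0.374). Smarcc1 averaged 149 ± 22.03 and 205 ± 27.9 CPM (log2 fold change 0.45 ± 0.20 (SE), edgeR adjusted p = 0.355), and Chd1 44.4 ± 20.95 and 77.7 ± 22.5 CPM (log2 fold change 0.80 ± 0.36 (SE), edgeR adjusted p = 0.364). Kat6b, with its values given above, averaged 1623 ± 225 and 1935 ± 243 CPM (log2 fold change 0.25 ± 0.12 (SE), edgeR adjusted p = 0.408). In this comparison 5 of the 6 marker lists differed without overlap, all but the cardiomyocyte list. Endothelial markers summed to between 3030 and 4596 CPM in MIRI+Compound C and between 2157 and 2929 CPM in MIRI+AICAR, and smooth muscle and pericyte markers to between 1727 and 1977 CPM and between 1111 and 1709 CPM. Leukocyte markers were higher in MIRI+AICAR, at 3166 to 4110 CPM against 2524 to 3079 CPM, as were fibroblast and matrix markers at 1009 to 1212 CPM against 773 to 1006 CPM and the platelet list at 1019 to 4238 CPM against 742 to 972 CPM. The nearest fibroblast and matrix values, 1008.8 and 1005.8 CPM, lay so close that a few reads could close the gap. The nearest smooth muscle and pericyte values, 1708.5 and 1727.4 CPM, were also close. The part of these markers in the values of Arid4b, Hdac9, Kat6b and the other genes was not tested.

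Of the circles in MIRI+AICAR against MIRI+Compound C, edgeR and DESeq2 each called 0 of 187, against 0.556% of all circRNAs by edgeR, and 4 (2.14%) had an unadjusted p under 0.05 against 8.51%. Arid4b novel_circ_018017 was at 67.4, 37.3, 66.6, 67.9 and 36.5 CPM in MIRI+Compound C and 24.9, 25.2, 30.1, 19.3 and 17.98 CPM in MIRI+AICAR, without overlap (log2 fold change -1.21 ± 0.44 (SE), edgeR adjusted p = 0.349). The leading Kat6b circle, novel_circ_020665, was at 767, 897 and 736 CPM for Sham, 824, 1053 and 919 for MIRI, 734, 1101, 1005, 1037 and 833 for MIRI+Compound C and 1028, 1372, 1087, 1408 and 1121 for MIRI+AICAR. It had its highest mean in MIRI+AICAR, and the MIRI+AICAR and MIRI+Compound C libraries overlapped (log2 fold change 0.35 ± 0.14 (SE), edgeR adjusted p = 0.414). All MIRI+AICAR libraries lay above all Sham libraries, a pair that was not tested. Ash1l novel_circ_043094 averaged 64.3 ± 16.2 and 28.9 ± 17.7 CPM (log2 fold change -1.11 ± 0.48 (SE), edgeR adjusted p = 0.491). Kat2b novel_circ_028801, of the acetyltransferase gene PCAF, averaged 66.1 ± 42.7 and 21.9 ± 22.5 CPM (log2 fold change -1.55 ± 0.74 (SE), edgeR adjusted p = 0.562). Smarcc1 novel_circ_066909 averaged 62.7 ± 18.6 and 93.9 ± 28.2 CPM (log2 fold change 0.57 ± 0.29 (SE), edgeR adjusted p = 0.627), and Chd9 novel_circ_062263 80.6 ± 11.6 and 115 ± 20.9 CPM (log2 fold change 0.51 ± 0.27 (SE), edgeR adjusted p = 0.639).

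For the 10 most abundant genes, the 95% intervals of the log2 fold change lay between -0.51 and 0.64 in MIRI against Sham and between -0.51 and 0.56 in MIRI+AICAR against MIRI. They lay between -0.40 and 0.43 in MIRI+Compound C against MIRI and between -0.38 and 0.50 in MIRI+AICAR against MIRI+Compound C. A 2-fold difference, 1 on the log2 scale, was therefore outside the interval of each of these 10 genes in the 4 comparisons. Over all 56 genes the interval lay within a 2-fold difference for 33, 33, 39 and 37 genes in those 4 comparisons. For the others the interval reached past a 2-fold difference in at least 1 direction.

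The log2 fold change lay within 0.5 of 0 for 83.9% of the 56 genes in MIRI against Sham, against 65.6% of all host genes. In the other 3 comparisons the shares were 80.4% against 72.7% for MIRI+AICAR against MIRI, 82.1% against 69.6% for MIRI+Compound C against MIRI, and 83.9% against 73.5% for MIRI+AICAR against MIRI+Compound C. Among genes with a count, chromatin regulators had the higher median count given above, and its part in these shares was not tested.

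Other chromatin genes, outside the families described so far, were read from the same fit, from a list of 146 genes of which 85 passed the filter. Here edgeR and DESeq2 each called 0 genes in each of the 4 pairwise comparisons, against 0.162%, 0.0270%, 0.595% and 1.95% of all host genes by edgeR in the order given above. At an unadjusted p under 0.05 there were 6, 3, 4 and 7 genes (7.06%, 3.53%, 4.71% and 8.24%), against 9.03%, 6.76%, 9.00% and 11.9% of all host genes. Their median log2 fold changes were 0.13, 0.03, -0.09 and 0.03. The smallest p in MIRI against Sham belonged to Phf3 (log2 fold change 0.96 ± 0.27, SE, edgeR adjusted p = 0.160), and in MIRI+Compound C against MIRI to Phc3, a Polycomb subunit (-0.73 ± 0.25, SE, edgeR adjusted p = 0.236). In MIRI+AICAR against MIRI it belonged to Phf21a (-0.27 ± 0.10, SE, edgeR adjusted p = 0.551), the most abundant gene of this list at 5634 ± 657 CPM (rank 11), and in MIRI+AICAR against MIRI+Compound C to Prdm2 (-0.40 ± 0.15, SE, edgeR adjusted p = 0.225). The test for any difference among the 4 groups called 1 gene (1.18%, against 2.70% of all host genes), Atxn7, a subunit of the SAGA acetyltransferase complex (edgeR adjusted p = 0.0334), which DESeq2 called too, and 6 had an unadjusted p under 0.05. Atxn7 averaged 2829 ± 533 CPM for Sham, 2044 ± 236 for MIRI, 2078 ± 239 for MIRI+Compound C and 1887 ± 127 for MIRI+AICAR. The edgeR adjusted p was 0.330 without Sham replicate 1 and 0.102 with the share of short circles as a covariate. It ranged from 0.0559 to 0.0632 in the 5 fits that each left out MIRI+Compound C replicate 4 or MIRI+AICAR replicate 2, 3, 4 or 5.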

How the data were processed

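CircRNAs were measured by RNA sequencing of mouse heart in 16 libraries. The authors deposited 1 table of back-splice read counts per circRNA and library, called with CIRI per the file header, of which the sources used here give neither version nor read minimum. The smallest count above 0 was 2. The labels name mm9, but 96.5% of starts and 96.3% of ends of exonic circRNAs lie on GENCODE M21 (GRCm38) exon edges and 0.320% after a shift of 1 base, so coordinates are given as GRCm38. Listed circle lengths equal the sum of the exons for 659 of 769 matched circles (85.7%).

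Counts were summed by host gene symbol. edgeR 4.0.16 quasi-likelihood tests (R 4.3.3) were fitted on the whole table over the 4 groups with TMM scaling, after a filter on low counts (filterByExpr, min.count 5, min.total.count 15), and p-values were adjusted by the Benjamini-Hochberg method over all 3699 host genes or 7917 circRNAs tested. The SE of a log2 fold change was not fitted directly. It was taken as the absolute log2 fold change over the square root of the F statistic of its test. The 95% intervals used this SE and a t distribution with the degrees of freedom of the test. CPM are back-splice counts scaled to a TMM-adjusted library total of 1e6, over the host genes or the circRNAs that passed the filter. The scripts were tested on simulated data. The genes named are the 10 most abundant, the most abundant of each family, and the 3 with the smallest p in each direction of each pairwise comparison, and likewise for circRNAs, and any other gene was named after its values were seen. Members and gene lists were chosen with earlier results of these data known. Alternatives were scaling by RLE or by library total, the filter left out or its count raised to 10, a replicate block, only the 2 groups compared, exonic circRNAs only, DESeq2 1.42.0, each library left out, and MIRI replicate 1 and MIRI+AICAR replicate 5 left out together. A fit with each library's share of circles of up to 300 nt as a covariate was added after seeing the data. Every count column was mapped to a library, and no 2 libraries held identical values.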

Additional observations from a re-analysis of the deposited data

Results flagged for a closer look

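In 120 looks at the highest or lowest library of a group of 5, 4 values stood far from the other 4 libraries of their group, where chance gives about 1 in 20. Kmt2a summed to 1262 CPM in MIRI+Compound C replicate 1, against 882 to 964 CPM in the other libraries of that group, and its leading circle novel_circ_063506 of 298 nt was at 1198 CPM there, against 901 to 920 CPM. Ehmt1 novel_circ_034963 was at 337 CPM in the same library, against 510 to 574 CPM. That library had 17.5% of exonic counts in circles of up to 300 nt, the highest of its group. Kmt2c novel_circ_047931 was at 62.3 CPM in MIRI+AICAR replicate 1, against 96.4 to 108 CPM in the other 4.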

How the results depend on the processing

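The 48 fold changes named kept their sign in all 1222 values over the alternatives, and none was called in any of them. No chromatin regulator gene was called in any comparison under any alternative, and none of their circRNAs was called in a pairwise comparison. In the test among the 4 groups 1 circRNA was called with no filter on low counts (Kat6b novel_circ_020665, adjusted p = 0.0228, with a range from 0.0228 to 0.497 over the alternatives), 1 by DESeq2 and 1 without Sham replicate 3, so that leaving out a library gave 0 to 1 calls; the last 2 are Ehmt1 novel_circ_034925. Among all circRNAs the same edgeR test called 205 of 40381 with no filter and 67 of 9288 without Sham replicate 3. Chromatin regulators made up 874 and 222 of those tested. With exonic circRNAs only, the share of counts was 2.10% for Sham, 2.08% for MIRI, 2.15% for MIRI+Compound C and 2.15% for MIRI+AICAR. Over the alternatives the whole table's calls ranged from 1 to 52 host genes in MIRI against Sham (6 as reported), 0 to 34 in MIRI+AICAR against MIRI (1), 4 to 77 in MIRI+Compound C against MIRI (22), 37 to 133 in MIRI+AICAR against MIRI+Compound C (72) and 58 to 193 among the 4 groups (100). For circRNAs the ranges were 1 to 50 (2), 0 to 29 (2), 1 to 71 (7), 10 to 103 (44) and 22 to 205 (42). The cause was not tested.

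With the replicate block, 0 chromatin regulator genes and 0 of their circRNAs were called in every comparison, against 6, 0, 11 and 82 of all host genes and 3, 1, 4 and 36 of all circRNAs in the 4 pairwise comparisons and 80 and 31 among the 4 groups. Same-numbered libraries of different groups had correlations of their deviations from the group means between -0.053 and 0.103 (20 pairs, median 0.016). Libraries of different number and group lay between -0.073 and 0.089 (74 pairs, median -0.0016). These correlations were taken over host gene sums. Such sums add a gene's short and long circles together, so they may show a shift in circle length only in part. Whether libraries of the same number were handled together was not tested. Replicate 1 had the highest share of circles of up to 300 nt in each of the 4 groups (21.2%, 18.9%, 17.5% and 15.9%). In MIRI+AICAR the lead was small, since replicate 2 had 15.5%. Replicate 1 also had the lowest share of circles over 600 nt in each group (25.97%, 28.7%, 27.99% and 32.3%), and no label says what the numbers share. DESeq2 gave no adjusted p to 11, 2 and 18 of the 56 genes and to 148, 147 and 60 of the 187 circRNAs in the comparisons of MIRI against Sham, of MIRI+Compound C against MIRI, and of MIRI+AICAR against MIRI+Compound C. Depth limits the sparse genes: Smarca4, Hdac7 and Smarcal1 had 7, 3 and 0 counts in MIRI.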

Other observations

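The deposited length of the leading Ncoa2 circle novel_circ_000107 is 12225 nt, while exons 2 to 4 of the matched transcript sum to 335 nt. The leading Kmt2a circle begins 3 bases inside exon 19. The Y-linked demethylase gene Kdm5d had 112 counts over the 16 libraries, and its X-linked relative Kdm5c ranked 537 among the host genes tested at 407 ± 79.3 CPM.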
